A study of Schizosaccharomyces pombe with 4 samples.

Results

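A set of 10 genes of the fission yeast meiotic programme was followed across a tiling array map of histone H3 trimethylated at lysine 9 (H3K9me3), the histone mark of heterochromatin. They are mei4, ssm4, num1, mcp7, rec8, spo5, crs1, mek1, mug9 and sme2, 9 protein-coding genes and 1 long non-coding RNA, grouped by name as loci of facultative heterochromatin. Each was taken as a fixed window of array positions, and the 10 windows hold 62 of the 41551 genomic tiles on the array. The rule for the windows uses no measured value, but the members were chosen with earlier results of these data known. The shares of genes set beside the loci below are therefore descriptions and not a test. The gene body annotated for each name in the RefSeq assembly ASM294v3 is on chromosome I for ssm4 (4534674 to 4536736, minus strand), mcp7 (578450 to 579948, plus strand) and mek1 (5231140 to 5232566, plus strand). On chromosome II lie mei4 (1473068 to 1475285, plus), num1 (898056 to 901363, plus), rec8 (2568938 to 2570993, plus), spo5 (2536150 to 2538254, plus), crs1 (3452323 to 3453516, minus) and sme2 (339346 to 340907, minus), and mug9 lies on chromosome III (2369108 to 2369852, minus).

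Schizosaccharomyces pombe keeps its meiotic genes silent in dividing cells. The RNA-binding protein Mmi1 recognises the hexamer UNAAAC in many meiotic transcripts and hands them to the nuclear exosome for destruction. At some of these genes the methyltransferase Clr4 also places H3K9 methylation, which gives small islands of heterochromatin that can be removed again when the cell enters meiosis. Clr3 is a histone deacetylase that acts in heterochromatin.

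The 4 groups, with 1 array each, were clr3-CDx2 OFF, clr3-CDx2 ON, wt OFF and wt ON. All of them carry tetR-clr4, named for the Tet repressor and Clr4, and the labels do not say what kind of allele clr3-CDx2 is. For ON, cells passed 20 generations in thiamine-free medium at 32 °C, then 5 in 5-fluoroorotic acid (850 µg/ml), a drug toxic to cells that express the uracil gene ura4, and were fixed in 3% paraformaldehyde. For OFF, thiamine (5 µg/ml) and tetracycline (2.5 µg/ml) were added for 14 more generations. OFF therefore differs from ON in thiamine and tetracycline and in harvest time, and 5-fluoroorotic acid is not named for the later growth, so these cannot be told apart from the switch itself. On each array DNA precipitated with the H3K9me3 antibody (Cy5) was set against input DNA (Cy3) on 60-mers placed 300 bp apart, after shearing to about 1000 bp. Since each group has 1 array, replicate error is unknown for every value below, and no test or p-value was computed. The range over the tiles of a locus is given instead, and tiles of 1 locus share their DNA fragments, so they are not replicates.

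What the 10 genes share in sequence is the Mmi1 hexamer, and the stretches that hold most of it are shown for the loci on which the comparisons turn. The 120 bases with the most matches to TNAAAC are printed 5′ to 3′ on the transcribed strand, from RefSeq ASM294v3, with the matches in capitals. mei4 and num1 are shown as loci that were lower in OFF cells, mug9 as the locus with the highest density, spo5 as the most enriched locus, and sme2 as the decoy RNA.
mei4, chrII:1473878-1473997, plus strand, coding exon: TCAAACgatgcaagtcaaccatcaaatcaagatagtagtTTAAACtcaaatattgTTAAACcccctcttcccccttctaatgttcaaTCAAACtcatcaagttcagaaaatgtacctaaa
num1, chrII:899614-899733, plus strand, coding exon: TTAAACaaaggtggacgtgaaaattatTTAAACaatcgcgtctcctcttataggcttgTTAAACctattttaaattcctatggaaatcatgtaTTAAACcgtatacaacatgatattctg
mug9, chrIII:2369329-2369448, minus strand, coding exon: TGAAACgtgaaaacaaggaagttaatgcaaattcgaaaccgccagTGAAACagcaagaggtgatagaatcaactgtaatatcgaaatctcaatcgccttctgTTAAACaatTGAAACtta
spo5, chrII:2537534-2537653, plus strand, coding exon: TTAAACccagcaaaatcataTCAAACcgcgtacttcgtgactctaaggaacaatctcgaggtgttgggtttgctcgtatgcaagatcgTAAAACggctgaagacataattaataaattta
sme2, chrII:339346-339465, minus strand, non-coding RNA exon: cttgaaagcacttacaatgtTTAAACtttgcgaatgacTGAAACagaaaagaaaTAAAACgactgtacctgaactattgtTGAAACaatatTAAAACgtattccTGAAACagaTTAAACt

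The stretch of sme2 holds 7 matches, and none of the 5113 protein-coding genes has as many within 120 bases of 1 coding exon. Introns, untranslated regions and exon junctions of those genes were not searched. sme2 was searched over its non-coding exon, so for it unlike kinds of sequence are compared. The stretches of mei4, num1 and mug9 hold 4 matches each, as do those of ssm4 and mek1, which are not shown. For each of these loci 17 other protein-coding genes (0.333%) hold at least as many, and those 17 include the other loci just named. The stretch of spo5 holds 3, which 164 genes (3.21%) equal or exceed. Over the whole gene body the sense strand carried 12.1 matches per kb in mug9, 7.78 in rec8, 7.54 in crs1, 6.67 in mcp7, 6.65 in spo5 and 6.30 in ssm4. The density was 5.76 per kb in sme2, 5.74 in num1, 4.96 in mei4 and 3.50 in mek1. All 10 lay above the median protein-coding gene, at 1.65 per kb, and 9 of them, all but mek1, above the 95th percentile of 3.83. Only 4 genes were denser than mug9, against 354 that were denser than mek1. A single match says little, since 90.7% of protein-coding genes hold at least 1 on the sense strand and 92.8% on the antisense strand. On the antisense strand the 10 genes had a median of 2.69 per kb against 1.93 over protein-coding genes. TNAAAC was counted on each strand separately and cannot overlap itself, and a match is a match of letters, not a measured binding site.

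**Figure D1:**
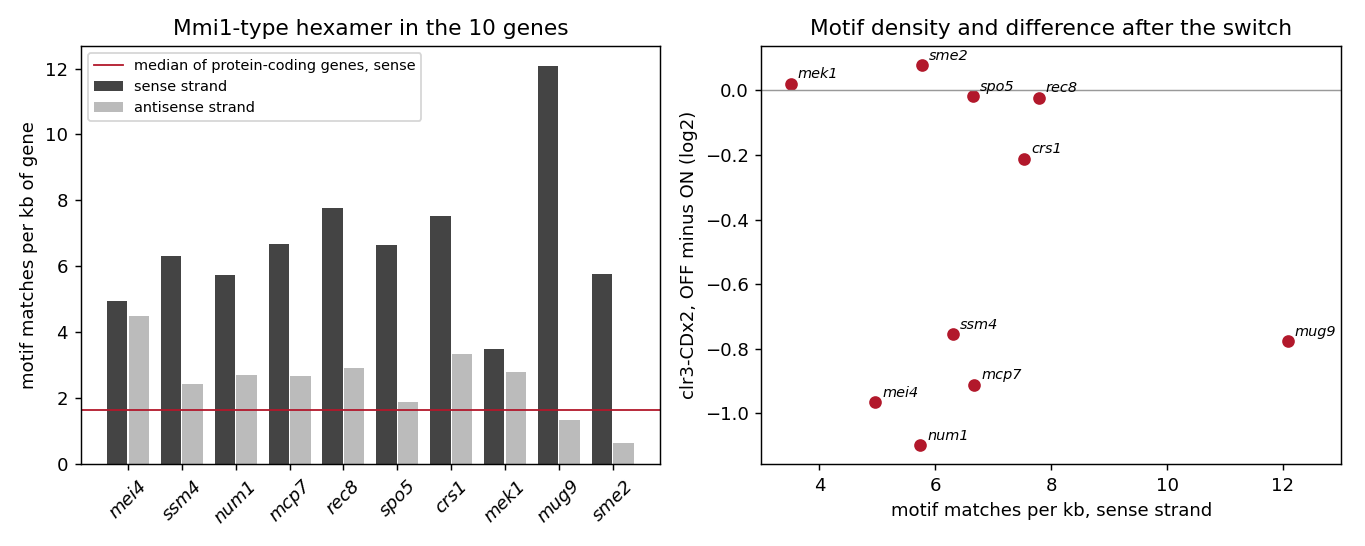
Left, matches to the hexamer TNAAAC per kb of gene body for the 10 genes on the sense strand (dark bars) and the antisense strand (light bars), with the median of protein-coding genes on the sense strand as a red line. All 10 dark bars stand above the line at 1.65, from 3.50 in mek1 to 12.1 in mug9. Right, sense density in matches per kb (x axis) against the clr3-CDx2 OFF minus ON difference in H3K9me3 in log2 (y axis), 1 point per gene. The loci with the lowest differences, num1, mei4 and mcp7, have densities between 4.96 and 6.67.

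Median signal over background was 137 to 166 for ChIP and 417 to 490 for input. None of the 62 tiles was saturated, marked as non-uniform or repeated in the genome. The lowest ChIP signal in a locus was 14.0 times background, in sme2. Levels are log2 ratios of ChIP over input less the median tile of the array, and a locus has the median of its tiles. The value over the flanks subtracts the median of the 32 tiles within 5 kb on either side and does not depend on how the array was centred. In ON arrays the most frequent ratio lay above the median by 0.25 in clr3-CDx2 and 0.24 in wt, and in OFF arrays by 0.05 in each genotype. Centring on that mode shifted the median OFF minus ON difference of all genes to 0.21 in clr3-CDx2 and 0.20 in wt, from a median of 0.01 in each, so OFF minus ON differences are also given over the flanks. Repeated pericentromeric tiles, constitutive heterochromatin, had medians of 5.44 in clr3-CDx2 OFF, 4.04 in clr3-CDx2 ON, 5.68 in wt OFF and 4.96 in wt ON. They were thus higher in OFF than in ON arrays in both genotypes, opposite in direction to the lowest of the meiotic loci below.

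Set against the genome, the 10 loci were not enriched for H3K9me3 as a group. Only spo5 reached 2-fold enrichment (1 on the log2 scale) on each array, and num1 reached it in clr3-CDx2 ON. That is 1 of 10 loci in clr3-CDx2 OFF, where 12.8% of 4936 protein-coding genes did so, 2 of 10 in clr3-CDx2 ON (11.1% of genes), 1 of 10 in wt OFF (9.32%) and 1 of 10 in wt ON (8.75%). The median locus stood at -0.04 in clr3-CDx2 OFF, 0.36 in clr3-CDx2 ON, -0.03 in wt OFF and 0.24 in wt ON, beside medians of 0.08, 0.09, 0.06 and 0.07 over all genes on the same arrays. By this threshold the 10 loci were thus not set apart from other genes. Whether the name of facultative heterochromatin holds in these cells was not tested, since a raised stretch among low tiles can stay below the threshold. The 10 are called meiotic loci here. Set against their own flanks, spo5, ssm4 and rec8 stood out by at least 0.5 on every array, which made 3 of 10 loci in clr3-CDx2 OFF (29.7% of genes), in wt OFF (26.4%) and in wt ON (27.8%). In clr3-CDx2 ON num1 and mcp7 joined them, which made 5 of 10 (30.5% of genes). A height over the flanks of 1 was reached by spo5 alone in clr3-CDx2 OFF (12.5% of genes) and wt OFF (9.26%), and by spo5 and ssm4 in clr3-CDx2 ON (12.6%) and wt ON (9.85%).

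**Figure D2:**
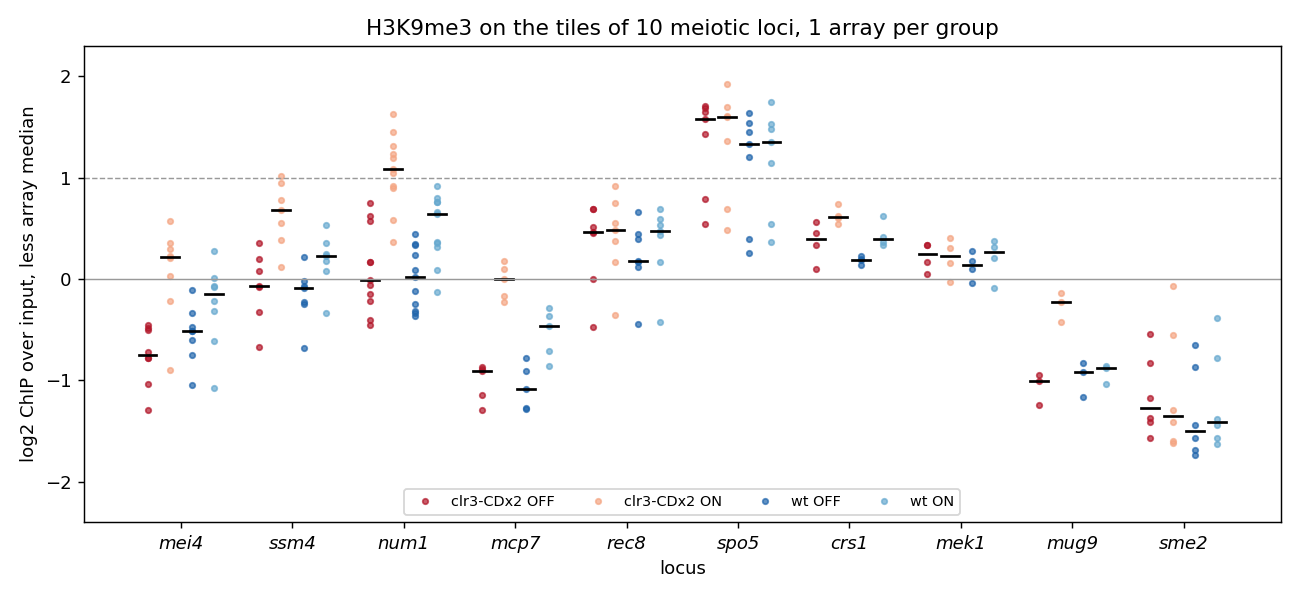
H3K9me3 on each tile of the 10 meiotic loci, as the log2 ratio of ChIP over input less the array median (y axis), by locus (x axis) and array (colour), with 1 array per group. Points are tiles and black bars the median of a locus. The bars of spo5 lie above the dashed line at 1 on all 4 arrays, num1 crosses it in clr3-CDx2 ON at 1.09, and sme2 lies between -1.50 and -1.27.

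The highest H3K9me3 was found at spo5, which encodes an RNA-binding protein needed for the second meiotic division and spore formation. Its level was 1.58 in clr3-CDx2 OFF, 1.60 in clr3-CDx2 ON, 1.33 in wt OFF and 1.35 in wt ON, and 5 of its 7 tiles reached 1 on each array. The locus stood above its flanks by 1.43 in clr3-CDx2 OFF, 1.52 in clr3-CDx2 ON, 1.32 in wt OFF and 1.31 in wt ON. The other 2 tiles, at the upstream end, were lower, and the first of them read 0.54, 0.49, 0.26 and 0.36 in the same order of arrays. The enriched stretch ran on into pcf1, the large subunit gene of a chromatin assembly factor, which overlaps the window and read 1.39, 1.43, 1.07 and 1.23. The cohesin gene psm1, 2.70 kb to the right, read 0.96, 1.04, 0.90 and 1.01. Levels of this size were not peculiar to the locus. ist2 read 1.57, 1.51, 1.41 and 1.35 and sea3 1.60, 1.48, 1.37 and 1.37, the nearest of 4552 genes compared. Their distances from spo5 over the 4 arrays were 0.11 and 0.13. No array of cells lacking H3K9 methylation was among the 4, so the part of methylation in the spo5 ratio was not tested.

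rec8, crs1 and mek1 read above the array median on each array, as many other genes did. In wt OFF, 2125 of 4935 other genes read higher than rec8, 2091 higher than crs1 and 2257 higher than mek1. In wt ON these numbers were 1466, 1665 and 2009. Mode centring put mek1 at -0.02 in clr3-CDx2 ON. rec8 encodes the cohesin subunit of meiotic chromosomes, and its level was 0.46 in clr3-CDx2 OFF, 0.48 in clr3-CDx2 ON, 0.18 in wt OFF and 0.47 in wt ON. It stood above its flanks by 0.95, 0.83, 0.76 and 0.97 on the same arrays, and 1 of its 7 tiles read between -0.48 and -0.36. Its nearest genes in level were nup45 and ght6, at distances of 0.06 and 0.08. crs1, a meiotic cyclin gene, read 0.40 in clr3-CDx2 OFF, 0.61 in clr3-CDx2 ON, 0.19 in wt OFF and 0.39 in wt ON, within 0.34 of its flanks on each array. mek1, the kinase gene of the meiotic recombination checkpoint, read 0.25, 0.23, 0.14 and 0.26 and stood at -0.32, -0.46, -0.31 and -0.33 over its flanks. Those flanks include smc5 to the left, at 1.34, 1.33, 1.22 and 1.27, and man1 to the right, at 1.08, 1.13, 0.82 and 0.96.

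sme2 had the lowest level on every array. It encodes meiRNA, the non-coding RNA that holds Mmi1 back when cells enter meiosis. The locus read -1.27 in clr3-CDx2 OFF, -1.35 in clr3-CDx2 ON, -1.50 in wt OFF and -1.41 in wt ON, and none of its 6 tiles exceeded -0.07. Over its flanks it stood at -0.90 in clr3-CDx2 OFF, -1.23 in clr3-CDx2 ON, -1.08 in wt OFF and -1.10 in wt ON. Its GC content of 30.3% was the lowest of the 10 genes, where mug9 had the highest at 40.7% and the median protein-coding gene 36.8%, and the part of base composition in the level was not tested. The highest neighbour was mti2, 2.70 kb to the left, at 1.31, 0.97, 0.999 and 0.95.

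Within clr3-CDx2 cells, 5 of the 10 loci read lower in OFF than in ON by at least 0.5 on the log2 scale (1.41-fold), where 1.34% of protein-coding genes did so. These were num1, mei4, mcp7, mug9 and ssm4, and num1 alone passed 1, as 0.324% of genes did. Over the flanks the same 5 loci were lower by at least 0.5, beside 2.63% of genes, with mug9 nearest the threshold at -0.56. Only num1 was lower by 1 over the flanks, beside 0.344%. The median difference was -0.48 over the 10 loci and 0.01 over all genes, and over the flanks it was -0.37 and 0.01. Every tile was lower at 6 loci, the 5 named and crs1, beside 18.5% of genes. No locus was higher by 0.5, where 6.56% of genes were. The 5 loci were also lower by at least 0.5 without centring (2.98% of genes), with mode centring (0.669%) and with normexp background correction (3.44%). With scaling to pericentromeric tiles spo5 joined them (-0.53, with 4.599% of genes lower) and sme2 was higher by 0.50 (with 13.2% of genes higher). With the ChIP channel alone 3 loci were lower by 0.5 (mei4, num1 and mcp7, beside 1.48% of genes).

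num1 showed the largest of these differences as a difference of locus medians, while the median of its tile differences (-0.98) equalled that of mcp7 (-0.98) to 2 decimals and did not pass 1. The num1 protein anchors dynein at the cell cortex, where it pulls the nucleus to and fro in meiotic prophase. Its level was -0.0095 with clr3-CDx2 OFF and 1.09 with clr3-CDx2 ON, and 0.02 with wt OFF and 0.64 with wt ON. The 2 OFF arrays thus read at the array median, and both ON arrays above it. In clr3-CDx2 the difference was -1.10 (2.14-fold lower in OFF) with all 11 tiles lower, by 0.74 to 1.24, and it extended over an unbroken run of 13 tiles, 3.90 kb, that were each lower by at least 0.5. In wt the difference was -0.62 with all 11 tiles lower, and the run covered 4 tiles or 1.20 kb. Over the flanks the differences were -1.01 in clr3-CDx2 and -0.47 in wt. The highest tiles in clr3-CDx2 ON lay in the upstream part of the gene, with a maximum of 1.63 against 0.75 in clr3-CDx2 OFF on its highest tile. Of the 4935 other genes, 14 had a lower OFF minus ON difference in clr3-CDx2. rad3, a checkpoint kinase gene 3.00 kb to the right, was enriched on each array at 1.25 in clr3-CDx2 OFF, 1.22 in clr3-CDx2 ON, 1.18 in wt OFF and 1.14 in wt ON. The gene most like num1 over the 4 arrays was pmd1, which read -0.08 in clr3-CDx2 OFF, 1.06 in clr3-CDx2 ON, -0.13 in wt OFF and 0.70 in wt ON, at a distance of 0.17, and the next, SPBC3H7.05C, lay at 0.50.

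mei4 encodes the forkhead transcription factor that switches on the genes of the meiotic divisions. Its level was -0.75 with clr3-CDx2 OFF and 0.22 with clr3-CDx2 ON, and -0.51 with wt OFF and -0.15 with wt ON. Only clr3-CDx2 ON stood above the array median. The difference in clr3-CDx2 was -0.97 (1.95-fold lower in OFF) with all 8 tiles lower (tile differences of -1.02 to -0.39), and 7 of them formed a run of 2.10 kb lower by at least 0.5. In wt it was -0.37, with 7 of 8 tiles lower and none by 0.5. Over the flanks the differences were -0.95 and -0.30. On every array mei4 lay below its flanks, at -1.15 in clr3-CDx2 OFF, -0.20 in clr3-CDx2 ON, -0.79 in wt OFF and -0.49 in wt ON. Its tiles were lowest at the downstream end, where the actin gene act1 follows at -1.32, -1.61, -0.91 and -1.37, while mok12, 3.00 kb to the right, read 1.62, 1.61, 1.68 and 1.50.

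mcp7 encodes a recombination protein that is the fission yeast counterpart of Mnd1. Its level was -0.91 with clr3-CDx2 OFF and 0.0021 with clr3-CDx2 ON, and -1.09 with wt OFF and -0.46 with wt ON. Each OFF array read lower than either ON array. The difference was -0.91 in clr3-CDx2 and -0.62 in wt, and all 5 tiles were lower in both genotypes, with tile differences of -1.07 to -0.91 in clr3-CDx2 and -0.62 to -0.42 in wt. Over the flanks the difference was -0.86 in clr3-CDx2 and -0.90 in wt, so for mcp7, alone among the 5 loci, the value over the flanks was not more negative in clr3-CDx2. The left flank holds erg11, an ergosterol synthesis gene, which read higher in wt OFF (-0.52) than in wt ON (-0.95), and against the right flank alone the wt difference was -0.57. ubp8, which overlaps the window, was lower in clr3-CDx2 OFF than in clr3-CDx2 ON by 0.68.

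ssm4 encodes a dynactin subunit for the same nuclear movement as num1. Its level was -0.07 with clr3-CDx2 OFF and 0.69 with clr3-CDx2 ON, and -0.09 with wt OFF and 0.23 with wt ON. As at num1, both OFF arrays lay near the array median. The difference was -0.76 in clr3-CDx2 (1.69-fold lower in OFF) and -0.31 in wt, with all 7 tiles lower in both. The tile differences ran from -1.09 to -0.35 in clr3-CDx2 and from -0.45 to -0.26 in wt. Over the flanks it was -0.90 and -0.24. Over all settings but the input channel alone, the first of these ran from -1.49 to -0.43. Low tiles of the left flank read higher in clr3-CDx2 OFF than in clr3-CDx2 ON, such as -1.73 against -2.85 at 3.0 kb from the centre. The height over the flanks, 0.65 in clr3-CDx2 OFF, 1.55 in clr3-CDx2 ON, 0.86 in wt OFF and 1.10 in wt ON, was measured against low tiles on the left side, where but1 read between -1.23 and -1.01. Against the right flank alone, which holds tpr1 at 0.17 to 0.36, ssm4 in wt ON stood at -0.05.

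mug9 is a gene induced in meiosis whose role is not known. Its level was -1.004 with clr3-CDx2 OFF and -0.23 with clr3-CDx2 ON, and -0.92 with wt OFF and -0.87 with wt ON. The clr3-CDx2 ON array stood apart from the other 3. The difference was -0.78 in clr3-CDx2 with all 3 tiles lower (-1.01 to -0.58), against -0.04 in wt. Over the flanks it was -0.56 in clr3-CDx2 and 0.04 in wt. Over all settings but the input channel alone, the clr3-CDx2 value over the flanks ran from -0.82 to -0.06. The lower tiles of mug9 formed part of a run of 9 tiles, 2.70 kb. That run took in SPCC70.08C to the left, where the clr3-CDx2 difference was -0.87. The ChIP channel of mug9 was lower in clr3-CDx2 OFF by 0.23 and its input channel higher by 0.29, where all genes had medians of 0.01 and 0.0032. At mug9 the input difference was thus the larger of the pair in size. At mei4 the ChIP channel differed by -0.65 and the input by 0.20, at num1 by -0.66 and 0.15, at mcp7 by -0.98 and 0.09 and at ssm4 by -0.35 and 0.10. The input signal of 9 of the 10 loci, all but mek1, differed between clr3-CDx2 OFF and ON by more than that of the median gene, upwards, and the part of input in these differences was not tested beyond these values.

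**Figure D3:**
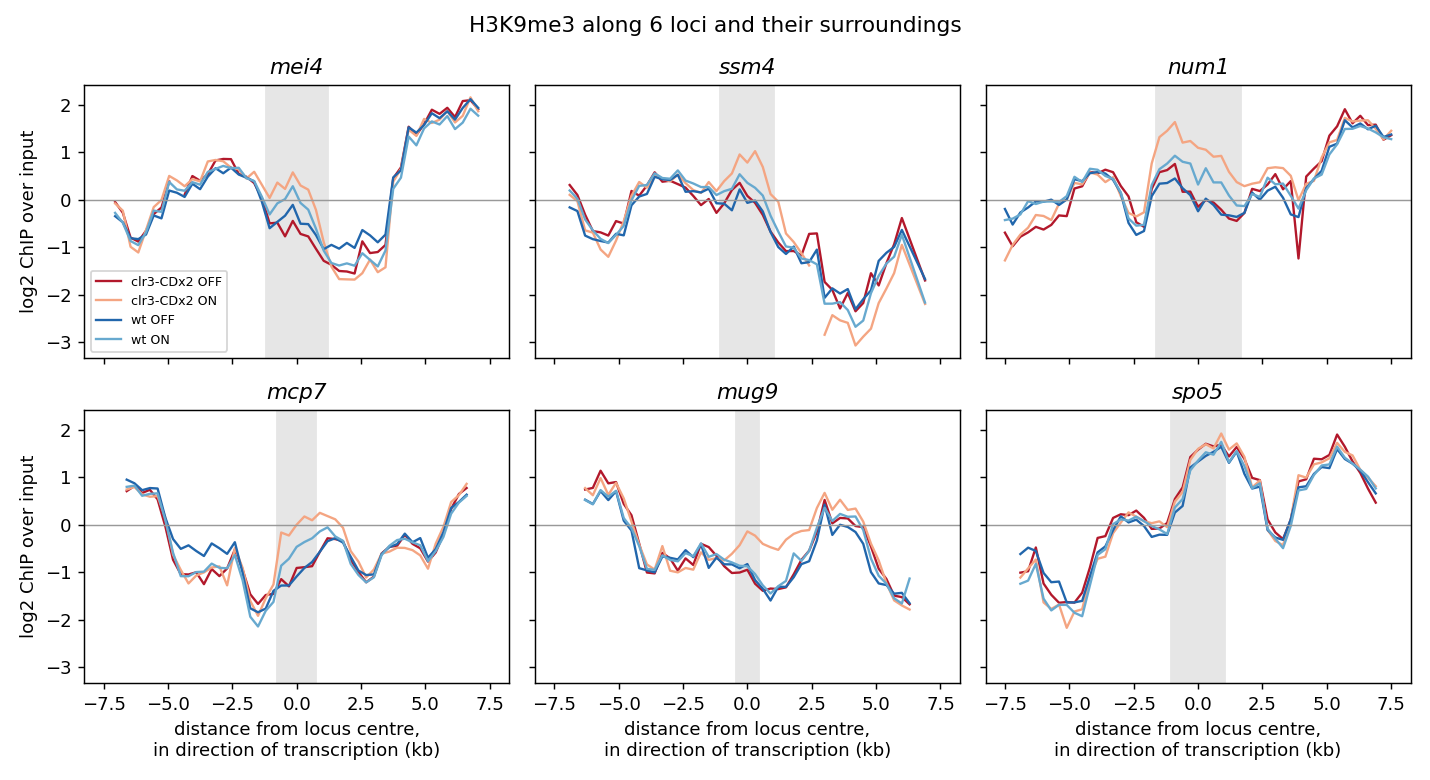
H3K9me3 along 6 meiotic loci, as the log2 ratio of ChIP over input less the array median (y axis), against distance from the centre of the locus in the direction of transcription in kb (x axis), for the 4 arrays. The grey band is the window of the locus. In num1, mei4, mcp7, ssm4 and mug9 the clr3-CDx2 ON line lies above the clr3-CDx2 OFF line across the band. At mug9 it stays above over the first kilobases downstream, and at ssm4 it lies below the OFF line further downstream (-1.73 in OFF and -2.85 in ON at 3.0 kb), while in spo5 the 4 lines run together, at medians between 1.33 and 1.60.

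The other 5 loci differed little in median level between clr3-CDx2 OFF and clr3-CDx2 ON. At sme2 the median hid tile differences from -0.47 at the upstream end of the window to 0.23 inside it. crs1 was lower in OFF by 0.21, with all 4 tiles lower, and mode centring left -0.01. rec8 differed by -0.02, spo5 by -0.02, mek1 by 0.02 and sme2 by 0.08, and each had both higher and lower tiles. The sign of these 4 turned under at least 1 other setting, and their values over all settings but the input channel alone ran from -0.23 to 0.18 for rec8, -0.53 to 0.23 for spo5, -0.09 to 0.22 for mek1 and -0.47 to 0.50 for sme2.

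In wt cells the same switch gave differences of smaller size at the 5 loci named for clr3-CDx2. Those loci were picked by their clr3-CDx2 value, and that choice by itself favours a smaller value in wt. Over the flanks mcp7 was not smaller in wt (-0.90, against -0.86 in clr3-CDx2). num1 and mcp7 were lower in wt OFF than in wt ON by at least 0.5, beside 1.8% of genes, and none of the 10 by 1, beside 0.689%. Over the flanks mcp7 alone passed 0.5, beside 1.66% of genes. All 10 loci were lower at all, beside 47.9% of genes, but over the flanks 6 were lower, beside 49.7%. The median tile difference of num1, -0.48, missed 0.5. The median difference was -0.25 over the 10 loci and 0.01 over all genes, and mode centring gave -0.06 over the loci and 0.20 over all genes. Below the 2 named loci came mei4 (-0.37), ssm4 (-0.31), rec8 (-0.29), crs1 (-0.20), mek1 (-0.13), sme2 (-0.09), mug9 (-0.04) and spo5 (-0.02). At rec8 the difference of the medians overstated its tiles, whose median difference was -0.09. Every tile was lower at 4 loci, ssm4, num1, mcp7 and crs1, beside 21.1% of genes.

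The difference between the genotypes in their OFF minus ON differences was -0.73 at mug9, -0.60 at mei4, -0.48 at num1, -0.44 at ssm4 and -0.29 at mcp7, meaning a more negative value in clr3-CDx2. It was 0.27 at rec8, 0.17 at sme2, 0.15 at mek1, -0.01 at crs1 and 0.0023 at spo5. Over the flanks it became 0.04 at mcp7. The median was -0.15 over the 10 loci and -0.0049 over all genes. On the ChIP channel alone the values at the first 5 loci named were -0.11 at mug9, -0.35 at mei4, -0.27 at num1, -0.0034 at ssm4 and -0.40 at mcp7. Those first 5 loci are the ones picked by their clr3-CDx2 value, which favours a negative value here. None of these differences between genotypes was tested, since each rests on 4 single arrays.

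**Figure D4:**
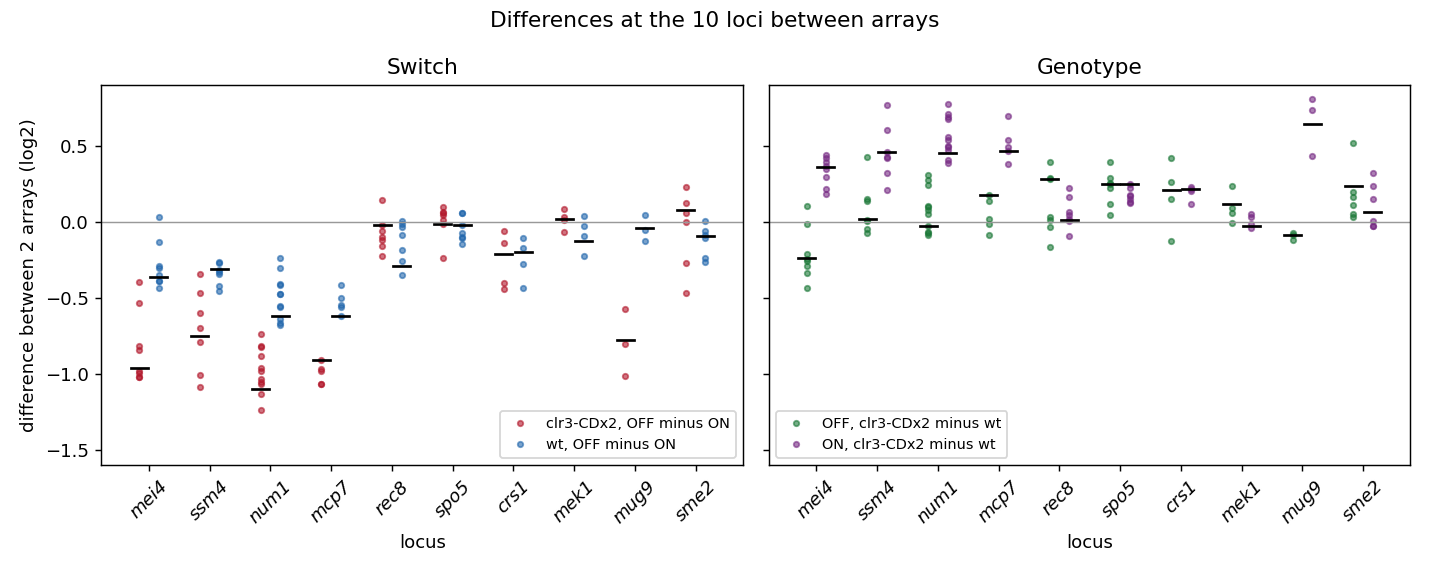
Differences in H3K9me3 at the 10 meiotic loci between pairs of arrays, in log2 (y axis), by locus (x axis). Left, OFF minus ON in clr3-CDx2 (red) and wt (blue), and right, clr3-CDx2 minus wt in OFF (green) and ON (purple). Points are tiles, and black bars the difference of the locus medians, which can lie at the edge of the points. In clr3-CDx2 the bars of num1, mei4, mcp7, mug9 and ssm4 lie between -1.10 and -0.76, and in ON the purple bars of the same loci lie between 0.36 and 0.65.

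Before the switch, clr3-CDx2 ON read higher than wt ON at 9 of the 10 loci, beside 54.5% of genes, and by at least 0.5 at mug9 alone, beside 1.01% of genes. This comparison uses the same clr3-CDx2 ON and wt ON arrays as the OFF minus ON differences and is not independent of them. The difference was 0.65 at mug9, 0.47 at mcp7, 0.46 at ssm4, 0.45 at num1, 0.36 at mei4, 0.25 at spo5 and 0.21 at crs1. Every tile was higher at these 7 loci, beside 24.3% of genes. rec8 (0.01), sme2 (0.06) and mek1 (-0.03) differed by less than 0.1. Over the flanks none reached 0.5, beside 0.912% of genes, and the differences were 0.45 at ssm4, 0.43 at mug9, 0.40 at num1, 0.38 at mcp7 and 0.28 at mei4. Over the flanks 7 loci were higher, beside 50.2% of genes, while rec8 (-0.13), mek1 (-0.14) and sme2 (-0.13) were lower. The median was 0.30 over the 10 loci and 0.02 over all genes. The ChIP channel alone gave 0.20 over the loci, and none of them passed 0.5.

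After the switch, no locus differed between clr3-CDx2 OFF and wt OFF by 0.5 in either direction, beside 3.16% of genes higher and 4.05% lower. num1 differed by -0.03 (with a median tile difference of 0.07 and 7 of 11 tiles higher), ssm4 by 0.02 and mug9 by -0.09. mei4 was lower in clr3-CDx2 OFF by 0.24, in 7 of 8 tiles, and mcp7 was higher by 0.18, in 3 of 5 tiles. spo5 (0.25) and sme2 (0.23) were higher in every tile. rec8 (0.28) and crs1 (0.21) were higher in most tiles, although the median tile difference of rec8 was 0.03, and mek1 differed by 0.11. At spo5 the genotypes thus differed by 0.25 in both states. The median was 0.15 over the 10 loci and 0.02 over all genes, and normexp background correction took the first to -0.0001.

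Other genes of meiosis, taken from a list of 37 names of which 34 had at least 2 tiles, differed little between the arrays as a group. In clr3-CDx2 OFF minus ON their median was -0.08. In it 1 gene was lower by at least 0.5 (mug45 at -0.80, beside 1.34% of genes). Higher by as much was 1 gene (rec7, of meiotic double-strand breaks, at 0.53, beside 6.56%). Over the flanks 3 were lower by at least 0.5, beside 2.63% of genes, and 1 was higher. None passed 1 in any of the 4 comparisons. In wt OFF minus ON their median was 0.0028, with 1 gene higher by at least 0.5 (ste11, the transcription factor gene of sexual differentiation, at 0.64) and none lower. Of all genes 4.92% were higher and 1.8% lower by as much. The 3 highest by level were meu6 at 1.89 in clr3-CDx2 OFF, 1.58 in clr3-CDx2 ON, 1.71 in wt OFF and 1.61 in wt ON, spo15 at 1.48, 1.64, 1.34 and 1.46, and mug4 at 1.23, 1.36, 1.26 and 1.16. spo15 encodes a spindle pole body component needed to start spore formation. Among the 34, 5 reached 1 in clr3-CDx2 OFF (12.8% of genes), 6 in clr3-CDx2 ON (11.1%), 5 in wt OFF (9.32%) and 4 in wt ON (8.75%).

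The genes of the RNA elimination machinery, 11 of them measured, also differed little as a group. Their median was 0.61 in clr3-CDx2 OFF, 0.55 in clr3-CDx2 ON, 0.42 in wt OFF and 0.47 in wt ON, and none passed 1 in any comparison. mmi1 itself read 0.69, 0.63, 0.69 and 0.60. The 3 highest were rrp6, the nuclear exosome nuclease gene, at 1.39, 1.19, 1.15 and 1.10, mtl1, an RNA helicase gene, at 0.87, 1.23, 0.94 and 1.04, and iss10 at 0.93, 0.87, 0.73 and 0.82. The median differences were 0.06 for clr3-CDx2 OFF minus ON and -0.06 for wt OFF minus ON. In clr3-CDx2 OFF minus ON 1 gene, pab2, was higher by at least 0.5 (0.50), beside 6.56% of all genes.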

How the data were processed

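H3K9me3 ChIP DNA and input DNA of 4 cultures, 1 array per group, were compared on 2-colour arrays, all on 1 slide. Spots were read by Agilent Feature Extraction, version 12.0.3.1, and the authors deposited the spot intensity of each channel with a log10 ratio of the dye-normalised processed signals, as the headers state. Values in the deposited series matrix are on the log2 scale and equalled the log2 ratio of processed signals on every tile. The genome build of the array is not given in the sources used here.

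The value analysed was log2 of processed ChIP over processed input signal less the array median, without spots marked non-uniform (190 to 578 per array). Window, flank (5 kb) and gene levels are medians of tiles. Differences are between 2 arrays, with no test, and calls use 1 or 0.5 on the log2 scale. Genes were placed by shifting each chromosome arm by the offset (-1650 to 4600 bp) at which input signal followed GC content most closely, with Spearman correlations of 0.22 to 0.25 at the offset and at most 0.09 beyond 1 kb. Of the protein-coding genes, 4936 had at least 2 tiles.

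Named genes are the 10 loci, for the 3 highest the 2 nearest genes over 4 arrays, the 3 highest of each list, list genes past 1 in a difference, and neighbours that reach 1. Other neighbours (act1, erg11, ubp8, but1, tpr1, SPCC70.08C), mug45, rec7, ste11, pab2 and mmi1, and those of the closing section were chosen after their values were seen. The members and lists were chosen with earlier results of these data known. In the lists mug1 is annotated as jnm1, dil1 as dli1, ars2 as pir2 and pir1 as iss10, and rec15, hop2 and moa1 were not measured. Alternatives changed centring, scale, background correction, channel, marked spots, summary, window, flank and threshold. The number of arrays limits the precision. Python 3.11.15, pandas 2.3.3, R 4.3.3 and limma 3.58.1 (normexp, offset 50) were used, and the steps were tested on simulated data.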

Additional observations from a re-analysis of the deposited data

Results flagged for a closer look

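At 6 places the differences of a locus ran in opposite directions in 2 groups of arrays. Each rests on 1 array per group, and none of these differences was tested. Between genotypes, the clr3-CDx2 minus wt difference of mei4 was -0.24 in OFF and 0.36 in ON, with the same signs over the flanks (-0.36 and 0.28). num1 had -0.0286 in OFF and 0.45 in ON, but the median of its tile differences in OFF was 0.07, with 7 of 11 tiles higher. mug9 had -0.0889 in OFF and 0.65 in ON. For mek1 it was 0.11 in OFF and -0.03 in ON, and over the flanks both values were negative (-0.01 and -0.14).

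Between states, mek1 differed by 0.0205 in clr3-CDx2 OFF minus ON and by -0.13 in wt OFF minus ON, and over the flanks both were positive (0.14 and 0.02). sme2 differed by 0.0789 in clr3-CDx2 and by -0.09 in wt, and over the flanks both were again positive (0.33 and 0.02).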

How the results depend on the processing

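No paired analysis was possible because the labels give no replicate numbers and each group has 1 array. The number of loci lower by at least 1 in clr3-CDx2 OFF minus ON, 1 as reported, was 3 without centring, 3 with normexp, 0 with mode centring, 0 on the ChIP channel alone and 5 at a threshold of 0.5. At that threshold, in settings chosen after seeing the data, the 5 became 3 on the ChIP channel alone (1.48% of genes, against 1.34%) and 6 with pericentromeric scaling (4.599%). The 2 lower in wt OFF minus ON became 0 with mode centring and 1 with pericentromeric scaling, with normexp or on the ChIP channel alone. The 1 higher in clr3-CDx2 ON than in wt ON became 4 without centring (1.52% of genes, against 1.01%), 4 with pericentromeric scaling (4.09%), 5 with normexp (2.09%) and 0 on the ChIP channel alone (0.709%). A threshold of 0.5 in place of 1 gave 2 loci lower in wt OFF minus ON and 1 higher in clr3-CDx2 ON minus wt ON, where 0 were past 1 in each. It gave 4 in place of 2 loci by level in clr3-CDx2 ON, and 2 in place of 1 in wt ON. The 2 in clr3-CDx2 ON became 1 with mode centring and 1 on the ChIP channel alone. The input channel alone, which holds no precipitated DNA, gave medians over the loci of 0.12 for clr3-CDx2 OFF minus ON, 0.0357 for wt OFF minus ON and -0.0647 for clr3-CDx2 ON minus wt ON (-0.0307 over the flanks). On it the num1 difference in clr3-CDx2 was 0.15 (0.12 over the flanks) and mei4 lay 0.31 above its flanks in clr3-CDx2 OFF. By its highest tile alone sme2 stood 0.0465 above its flanks in clr3-CDx2 ON, and against the right flank alone ssm4 stood at -0.0492 in wt ON. The cause of these shifts was not tested. Keeping marked spots, taking levels from the series matrix or using tiles placed by the offsets moved no value beyond the spread of its tiles. These settings had little room to move a value, so this says little about robustness. No tile of a locus was marked, and the series matrix equalled the ratios analysed. The offsets placed the genes on nearly the same tiles as the windows.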

Other observations

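Genes next to the loci also differed between states in places. In clr3-CDx2 OFF minus ON, mrpl8, a mitochondrial ribosomal protein gene that overlaps the sme2 window, differed by -0.50. The sme2 median differed by 0.08, but the tiles at the upstream end of its window differed by -0.27 and -0.47. mrpl8 read -0.64 in clr3-CDx2 OFF, -0.15 in clr3-CDx2 ON, -0.65 in wt OFF and -0.43 in wt ON. To the left of mug9, tmp1 and sac32 differed by -0.39 and -0.35, beside -0.78 at mug9. To the right of mug9 the sign turned, with 0.24 at SPCC70.10 and 0.09 at pof7. To the right of rec8, which differed by -0.02, lam1 differed by -0.44 and cyb502 by -0.30.

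Of the other genes of meiosis, dic1 and rec6 differed more over their flanks than on their own. dic1 had an OFF minus ON difference in clr3-CDx2 of -0.49, and of -0.95 over its flanks, and rec6 of 0.39 on its own and -0.83 over its flanks. mug45 differed by -0.80 and by -0.82 over its flanks. These genes were chosen after their values were seen.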
